A study of Homo sapiens with 7 samples.

Results

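DLD1 is an established colorectal cancer cell line, and its response to loss of DNMT1 was read on 2 of the 7 arrays of the series. On each of the 2 arrays, RNA of DLD1 cells in which DNMT1 was knocked down with a short hairpin RNA (shRNA) was compared with RNA of DLD1 cells given a non-silencing control. The hairpins were shRNA 49 on one array and shRNA 51 on the other. The remaining arrays hold the same DNMT1 knockdowns over non-silencing control in HT29 and RKO cells, with 2 arrays per line, and an shRNA against UHRF1 over its control in HCT116 cells, with 1 array. All are colorectal cancer lines. Both arrays were chosen by their column labels, and the genes described are those that lay on the same side of 0 on both. Per the labels, shRNA 49 samples were labelled with Cy3 and shRNA 51 samples with Cy5, each against a control in the other dye. In DLD1 the knockdowns are therefore in opposite dye orientations, and shRNA number and dye cannot be told apart. The label of the UHRF1 array holds what reads as a day, so whether its time point matches that of the DNMT1 arrays is unknown. The labels of the DNMT1 arrays do not name separate cultures, a day of harvest or clones. The spread between the 2 DLD1 arrays may thus be partly technical. The p-values measure only the spread among the 6 DNMT1 arrays that is left once a common shRNA difference is taken out. In pools of cells, a change in a few cells and a change in all cells cannot be told apart.

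DNMT1 is the DNA methyltransferase that copies CpG methylation onto the new strand after replication, and UHRF1 brings it to newly copied DNA. DNMT3A and DNMT3B place methylation on unmethylated CpG sites. Methylated CpG-rich promoters are commonly silent, and in adult tissues the promoters of germline genes, such as cancer-testis antigens, are among those kept methylated. In colorectal cancer many CpG-island promoters, some of them of developmental regulators and Wnt inhibitors, gain methylation.

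Values are log2 ratios of knockdown over control, so that 1 is a 2-fold higher and -1 a 2-fold lower RNA level. The deposited ratios cover 41000 probes, and 17874 genes had a ratio on both DLD1 arrays. Blanks numbered 205 with shRNA 49 and 2610 with shRNA 51, and the interquartile ranges of the ratios were 0.558 and 0.829. Over probes, the arrays correlated at r = 0.25 with each other. The shRNA 49 array of DLD1 correlated at 0.26 with that of HT29 and 0.19 with that of RKO, and the shRNA 51 array at 0.26 and 0.21. These are descriptions across probes that share arrays and dyes, and probes are not replicates. On each DLD1 array 35.3% or 37.5% of the ratios were held exactly by at least 1 other probe of the same array. Genes whose DLD1 value rests wholly or partly on such shared ratios are marked in the text. The ratios carry no level, so whether these cells express epithelial markers could not be checked. Of the ratios of such markers, EPCAM stood at 0.03 and 0.35, CDH1 at 0.19 and 1.38, and KRT8 at 0.69 and 1.99 with shRNA 49 and shRNA 51. Among other such markers, VIL1 lay above control on both arrays and CDX2 below it, with values given further on.

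DNMT1 stood at 25.4% of control with shRNA 49 and 22.2% with shRNA 51, log2 ratios of -1.97 and -2.17. The direction of all ratios was read from this gene, so its low value is no independent check of the labels, and the direction is likely rather than settled. On the UHRF1 array, read the same way, the 4 UHRF1 probes stood at -3.10, -2.06, -0.18 and 0.68. For DNMT1, HT29 gave -2.07 and -0.92, and RKO -3.27 and -2.35. The moderated DLD1 mean was -2.07 ± 0.32 (SE, adjusted p = 0.242), so even the targeted gene did not pass the test across all genes. The de novo enzyme DNMT3B lay above control by nearly the same amount on both DLD1 arrays, at 1.56 and 1.77, against -0.19 and 0.53 in HT29 and 0.13 and 0.58 in RKO. Both DLD1 values exceeded all 4 others, but DNMT3B did not pass the test either (DLD1 mean 1.66 ± 0.24, adjusted p = 0.235). DNMT3A stood at 0.26 and 0.36, and its 2 probes differed, with -0.05 and 0.09 on one and 0.57 and 0.64 on the other. The mean of the 4 UHRF1 probes was 0.83 on the shRNA 49 array and 0.82 on the shRNA 51 array, but single probes ranged from -0.08 to 1.40 and from -0.02 to 1.65, and 1 of the 4 holds shared ratios. Of the 20 measured genes of the DNA methylation machinery, 1 (DNMT3B) was at least 2-fold higher on both DLD1 arrays and 1 (DNMT1) at least 2-fold lower.

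Read in this direction, more genes lay at least 2-fold above control than below it on both arrays, and with the sign turned the 2 counts change places. At least 2-fold higher on both arrays were 338 of 17874 genes (1.89%), and at least 2-fold lower were 67 (0.375%), while 76 lay 2-fold apart from control in opposite directions. The whole set of genes was close to an even split, with 55.8% on the same side of 0 on both arrays (5044 above and 4923 below), against 52.2% in HT29 and 54% in RKO. HT29 had 267 genes (1.57%) higher and 69 (0.407%) lower on both of its arrays, and RKO 343 (2.02%) and 110 (0.647%). With ratios shared between probes left out, DLD1 kept 12068 genes, of which 323 (2.68%) were higher and 49 (0.406%) lower. With shRNA 49, 501 of the genes with both ratios were at least 2-fold higher, the 338 among them, and 350 were lower. With shRNA 51 these counts were 2349 and 809. Among the 338 genes, the shRNA 51 ratio was the larger in 285 (84.3%), with medians of 1.52 with shRNA 49 and 2.67 with shRNA 51. At least 4-fold higher on both were 74 genes, at least 8-fold 32 and at least 16-fold 13. Just inside the 2-fold limit lay UPK3A (1.00 and 1.56, the second a shared ratio), and just outside it ZIM2 (0.998 and 1.32). Of the lower genes, only 1 was at least 4-fold lower on both, with medians of -1.27 and -1.45.

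**Figure D1:**
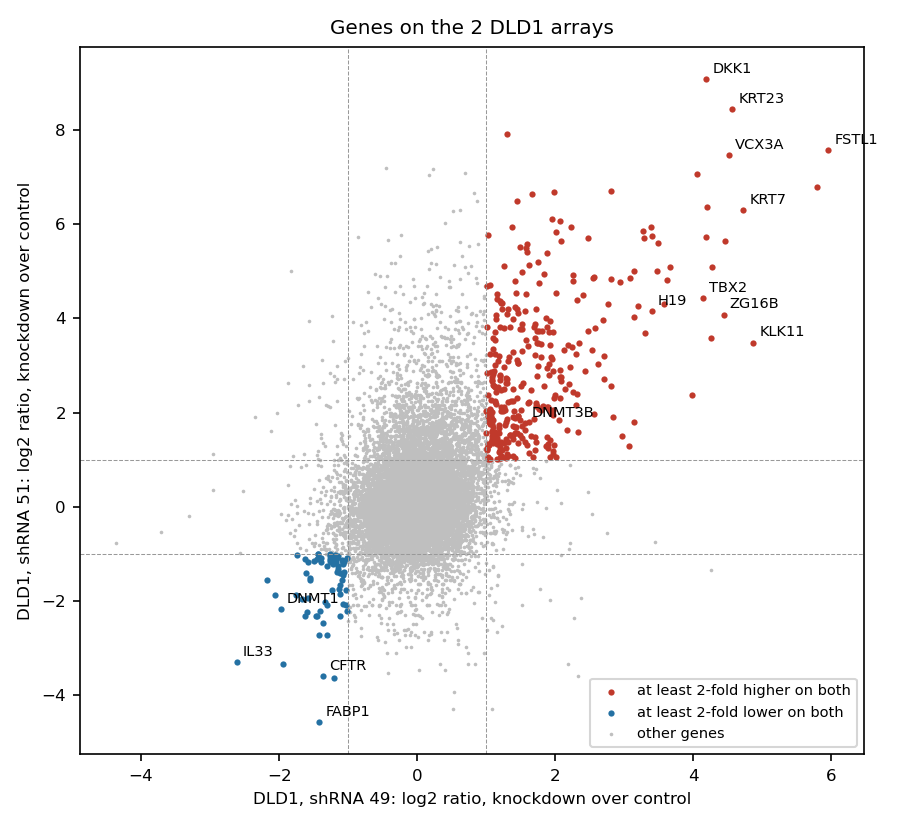
Each point is a gene with a ratio on both DLD1 arrays, placed by its log2 ratio of knockdown over control with shRNA 49 (x axis) and shRNA 51 (y axis). Dashed lines mark 2-fold, red points the 338 genes higher on both and blue points the 67 lower on both, and the red cloud reaches much further along the y axis.

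Across all genes, a limma fit of the 6 DNMT1 arrays, with a coefficient per line and one for the shRNA, tested 17431 genes. In DLD1 4 rose (0.0229%) and none fell at an adjusted p of 0.05, with 1114 higher and 439 lower at an unadjusted p under 0.05. The 4 were FSTL1, VCX3A, VCX and CTAG1A, each with an adjusted p of 0.0346. FSTL1, a secreted glycoprotein of the follistatin family, averaged 6.76 ± 0.28 (moderated SE of the fit), VCX3A 5.99 ± 0.30, VCX 5.56 ± 0.27 and CTAG1A 4.96 ± 0.24. The fit takes out a common shRNA difference, so these SEs are not the spread of the DLD1 arrays. For VCX that spread was an SD of 2.13. The count of 4 genes depended on the settings. Without the shRNA term none rose, without shared ratios 70 rose and 2 fell (SYBU and DNMT1), and with quantile normalization 39 rose. With either DLD1 array or either HT29 array left out, no gene was called, while 15 and 14 were called without the shRNA 49 and the shRNA 51 array of RKO. Simulated data had normal noise, no blanks or shared ratios, and the same shift on both DLD1 arrays. In them, 35.8%, 71.6% and 81.8% of genes changed by 2, 4 and 6 on the log2 scale were recovered, with 5 false calls. Recovery in the real data may differ, since these are less regular. The genes below are therefore described by their values, and most of them did not pass this test.

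FSTL1 was also the gene furthest above 0 on both arrays together, 62.1-fold higher with shRNA 49 and 189-fold with shRNA 51. Its DLD1 log2 ratios were 5.96 and 7.57, those of HT29 3.47 and 4.60 and those of RKO 2.26 and 2.85, so every knockdown array lay above control and both DLD1 arrays above the rest. On the HCT116 UHRF1 array it stood at -0.04. Second came ST8SIA6-AS1, a long non-coding RNA antisense to a sialyltransferase gene, at 5.79 and 6.78 in DLD1 and 5.08 and 8.67 in HT29, with 1.36 on the RKO array that measured it. Whether its probe reads only that strand was not checked. Of the 20 genes chosen by the smaller of their DLD1 ratios, among genes with an unshared ratio on both arrays, the smaller fold ran from 10.6 to 62.1. The ratio was larger with shRNA 51 in 18 of the 20. All 20 entered the fit, 4 passed it, and the adjusted p ran from 0.0346 to 0.319.

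A trio of X-linked cancer-testis genes led the germline group and were as high in the other lines. VCX3A, of the variable charge X family expressed in male germ cells, stood at 4.51 and 7.46 in DLD1, and HT29 (4.73 and 8.11) and RKO (6.56 and 8.74) overlapped these. Its relative VCX stood at 4.06 and 7.07 in DLD1, against 5.52 to 8.07 on the other DNMT1 arrays. CTAG1A, which encodes the NY-ESO-1 tumour antigen, lay at 4.19 and 5.73 in DLD1 and between 4.24 and 6.17 elsewhere. In none of these did DLD1 lie beyond the other lines, and the 3 were also high on the UHRF1 array, at 4.06, 3.96 and 5.11. CT45A1 lay at 3.67 and 5.09 in DLD1 and 3.06 to 5.98 in the other lines, but at 0.95 on the UHRF1 array. FAM50B, an imprinted gene copied into the genome from an X-linked parent, had the larger ratio under shRNA 49, at 4.26, and 3.59 under shRNA 51, while HT29 gave 5.46 and 2.28. VCX, CTAG1 and CT45 genes have near-identical copies, so which copy the probe measured is uncertain.

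Keratins and other epithelial genes were the next group. KRT7, a keratin of simple and ductal epithelia, stood at 4.72 and 6.30 in DLD1 and at 4.49 and 5.63 in HT29, while RKO reached 2.27 and 2.30. KRT23 reached 4.56 and 8.44 in DLD1, and its other values were scattered, with -1.32 and 5.06 in HT29 and -0.31 and 0.89 in RKO. KRTAP3-1, a hair keratin-associated protein, lay at 4.20 and 6.36 in DLD1, against 2.50 and 3.54 in HT29 and -0.23 on the RKO array with a value. For ZNF750, a transcription factor of epidermal differentiation, the DLD1 ratios of 4.27 and 5.10 exceeded 2.22 and 1.75 in HT29 and 1.10 in RKO. CST6, a secreted inhibitor of cysteine proteases, showed 3.47 and 5.0 in DLD1 and no more than 2.07 elsewhere. ANXA8L1, a membrane-binding annexin, had 3.40 and 5.75 in DLD1 and no more than 1.17 elsewhere. For the 4 genes KRTAP3-1, ZNF750, CST6 and ANXA8L1, both DLD1 values lay above all other measured DNMT1 arrays. KRTAP3-1 and ZNF750 lacked an RKO value with shRNA 51. On the UHRF1 array KRTAP3-1 reached 3.91, and the others no more than 0.54.

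DKK1, a secreted inhibitor of Wnt signalling, had the highest shRNA 51 ratio of the genes measured on both DLD1 arrays, 9.07, and 4.19 with shRNA 49. The DLD1 arrays differed by more for DKK1 than for any other of the 20 genes (SD 3.45), and an RKO array reached 4.66 while HT29 gave -1.58 and 0.00. TBX2, a T-box transcription factor, was among the most even, at 4.14 and 4.43 in DLD1, with -0.03 and 2.06 in HT29 and 0.76 and 0.61 in RKO. SIX2, a homeobox factor of kidney progenitors, was likewise even at 3.58 and 4.31, and all 4 other arrays lay between -0.42 and 0.45. S100A4, a calcium-binding protein linked to cell motility, stood at 3.61 and 4.82 in DLD1 and between -0.96 and 2.30 in the other lines. ADIRF, first described as a factor of fat cell formation, gave 4.46 and 5.64 in DLD1, against 0.15 to 2.44. DNALI1, a dynein subunit of motile cilia, overlapped the others, with 3.49 and 5.6 in DLD1 and 7.29 on 1 RKO array. ZG16B, a secreted lectin-like protein, showed 4.44 and 4.08 in DLD1 and between -0.69 and 0.41 elsewhere. The 20 genes were chosen for high DLD1 values, and 16 of them had a value on all 4 other DNMT1 arrays. DLD1 lay above all other measured DNMT1 arrays in 10 of the 20. All other measured arrays were at least 2-fold higher in 9, and none was in 2, SIX2 and ZG16B.

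**Figure D2:**
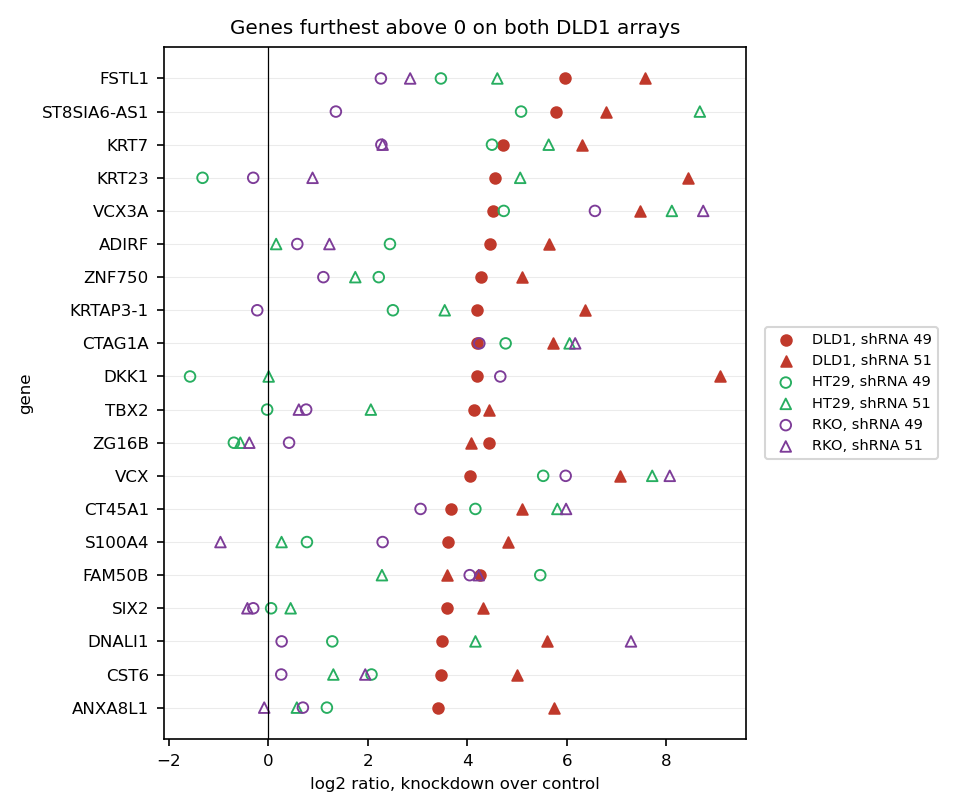
Log2 ratios of knockdown over control (x axis) of the 20 genes furthest above 0 on both DLD1 arrays among those with unshared ratios (which leaves out KLK11), with filled red symbols for DLD1 and open symbols for HT29 (green) and RKO (purple), circles for shRNA 49 and triangles for shRNA 51. For VCX3A and CTAG1A the lines intermingle, while for ZG16B and SIX2 the HT29 and RKO symbols sit near 0.

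To show what the promoters of such genes look like at the sites DNMT1 acts on, 6 are printed below, chosen after their values were seen to span the range of CpG content. They are RefSeq sequences of GRCh38.p14, covering 250 bases before to 50 bases after the annotated start, written 5′ to 3′ on the gene's strand with each CpG in capitals. Methylation of these sites was not analysed here. The FSTL1 window lies at chr3:120450943-120451242 on the minus strand and holds 30 CpG sites. SIX2 (chr2:45009403-45009702, minus strand) holds 29 and DKK1 (chr10:52314031-52314330, plus strand) 20. VCX (chrX:7842921-7843220, plus strand) holds 16, and KLK11 (chr19:51027597-51027896, minus strand) only 3. The window of IL33 (chr9:6214899-6215198, plus strand), the gene furthest below 0 on both arrays, holds 1.
FSTL1: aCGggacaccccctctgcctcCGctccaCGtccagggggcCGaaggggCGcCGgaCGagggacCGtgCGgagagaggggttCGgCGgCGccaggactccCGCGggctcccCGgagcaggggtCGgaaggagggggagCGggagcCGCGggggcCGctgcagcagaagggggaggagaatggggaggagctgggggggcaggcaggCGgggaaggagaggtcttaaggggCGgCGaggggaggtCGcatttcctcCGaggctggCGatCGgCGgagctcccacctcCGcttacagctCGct
SIX2: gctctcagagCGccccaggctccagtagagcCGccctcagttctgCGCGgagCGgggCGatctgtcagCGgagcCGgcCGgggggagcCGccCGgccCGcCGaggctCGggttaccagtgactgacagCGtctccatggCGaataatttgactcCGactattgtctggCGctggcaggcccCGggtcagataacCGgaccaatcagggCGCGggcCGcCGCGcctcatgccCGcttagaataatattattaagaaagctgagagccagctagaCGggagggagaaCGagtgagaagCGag
DKK1: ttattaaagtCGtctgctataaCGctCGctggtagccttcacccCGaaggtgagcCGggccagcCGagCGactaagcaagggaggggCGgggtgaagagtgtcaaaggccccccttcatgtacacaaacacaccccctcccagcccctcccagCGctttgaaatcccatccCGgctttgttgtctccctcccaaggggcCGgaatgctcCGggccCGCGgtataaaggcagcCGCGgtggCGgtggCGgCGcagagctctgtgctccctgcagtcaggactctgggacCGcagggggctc
VCX: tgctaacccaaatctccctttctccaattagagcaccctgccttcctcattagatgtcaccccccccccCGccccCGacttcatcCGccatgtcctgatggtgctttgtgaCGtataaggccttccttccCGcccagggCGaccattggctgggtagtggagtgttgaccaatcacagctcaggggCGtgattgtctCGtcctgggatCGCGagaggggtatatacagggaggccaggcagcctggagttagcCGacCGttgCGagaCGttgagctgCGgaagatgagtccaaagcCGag
KLK11: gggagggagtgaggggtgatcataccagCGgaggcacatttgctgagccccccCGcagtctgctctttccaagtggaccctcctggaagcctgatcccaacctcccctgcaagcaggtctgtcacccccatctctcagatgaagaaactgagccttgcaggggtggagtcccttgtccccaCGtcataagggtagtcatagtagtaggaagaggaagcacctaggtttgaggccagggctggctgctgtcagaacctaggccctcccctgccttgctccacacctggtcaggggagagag
IL33: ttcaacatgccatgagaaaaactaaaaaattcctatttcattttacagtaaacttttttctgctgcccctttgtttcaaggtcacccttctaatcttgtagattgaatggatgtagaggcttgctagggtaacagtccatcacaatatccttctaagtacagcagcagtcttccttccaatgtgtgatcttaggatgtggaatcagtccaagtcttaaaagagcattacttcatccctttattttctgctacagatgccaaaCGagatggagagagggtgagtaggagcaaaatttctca

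The same count was made over all genes with such a window. Of the 338 genes higher on both DLD1 arrays, 243 had such a promoter in the RefSeq table, with a median of 14 CpG sites, against 23 in the 14039 promoters of all measured genes. At least 15 CpG sites were held by 49.4% of the higher genes' promoters and 69.8% of all, and at most 5 by 25.9% and 15.9%. The 43 promoters of lower genes had a median of 15. Without the cancer-testis list, the median of the higher genes was 15 (231 promoters). In the higher genes shared with neither HT29 nor RKO the median was 19 (144 promoters), with 57.6% holding at least 15. Motifs that contain a CpG were searched for on both strands, each counted alone. The cyclic AMP response element TGACGTCA was in 0.823% of the higher genes' promoters (2 of 243) and 2.80% of all. The ETS motif CCGGAAGT was in 1.23% (3 promoters) and 6.74%. The NRF1 core GCGCATGCG was in 0.823% (2 promoters) and 3.04%, the E-box CACGTG in 7.0% and 9.18%, and the E2F motif GGCGGGAA in 4.12% and 4.49%. The shares were not adjusted for the lower CpG count of the higher genes' promoters. These shares describe letters in a 300-base window and no binding. Among the autosomes and X, X held the largest share of higher genes, 26 of 660 (3.94%). Without the cancer-testis list it was 13 of 621 (2.09%), and the autosomes ran from 0.314% on chromosome 13 to 2.40% on chromosome 17.

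The genes lower on both arrays were fewer and closer to 0. IL33, a nuclear cytokine released by damaged epithelium, was the furthest below, at 16.3% of control with shRNA 49 and 10.2% with shRNA 51. Its log2 ratios were -2.62 and -3.29 in DLD1, against -1.52 and 1.39 in HT29 and -0.12 and 1.07 in RKO, and the HT29 arrays thus lay on opposite sides of 0. The digestive proenzymes PRSS1 (-1.75 and -1.87) and PRSS2 (-1.62 and -2.33), trypsinogen genes that are close copies of each other, also lay below 0 on all 4 other arrays, from -1.95 to -0.19. FABP1, the fatty acid-binding protein of liver and small intestine, stood at -1.42 and -4.57 in DLD1, with HT29 at -1.56 and -0.95 and 1 RKO array at -0.41. The chloride channel CFTR averaged -1.36 and -3.60, with its 2 probes at -1.94 and -0.79 under shRNA 49 and -4.82 and -2.38 under shRNA 51. One of these, -0.79, is a shared ratio.

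GATA6, a transcription factor of gut endoderm, lay at -1.61 and -1.41 in DLD1 and at -1.42 and -1.72 in RKO, but at 0.74 and 0.64 in HT29. ACSM3, a mitochondrial acyl-CoA synthetase, stood at -1.45 and -2.33 in DLD1 and between -0.02 and 1.08 in the other lines. ARSL, an X-linked arylsulfatase, gave -1.59 and -2.23 in DLD1 and 0.60 to 1.18 on the other DNMT1 arrays with a value. On the UHRF1 array it stood at 0.01. ETNPPL, a lyase that breaks down phosphoethanolamine, gave -2.17 and -1.55, against -0.94 to 0.12 on the other DNMT1 arrays. MACIR, a regulator of macrophage metabolism, was even at -1.56 and -1.51, and no other array lay below -0.67. SYBU, a kinesin adaptor of axonal transport, lay at -1.59 and -1.93 in DLD1 and -1.27 and -1.34 in HT29, but near 0 in RKO. The remaining 3 of the 15 chosen genes were CRTAM (-1.42 and -2.71), SMIM10L2A (-1.47 and -2.31) and LOC100131289 (-1.41 and -2.20). CRTAM had too few values for the fit, and none of the other 14 passed it (adjusted p 0.205 to 0.588). The 15 were chosen for low DLD1 values, and 12 of them had a value on every other DNMT1 array. DLD1 lay below every other measured DNMT1 array in 9 of the 15, and 0 were at least 2-fold lower on all others.

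**Figure D3:**
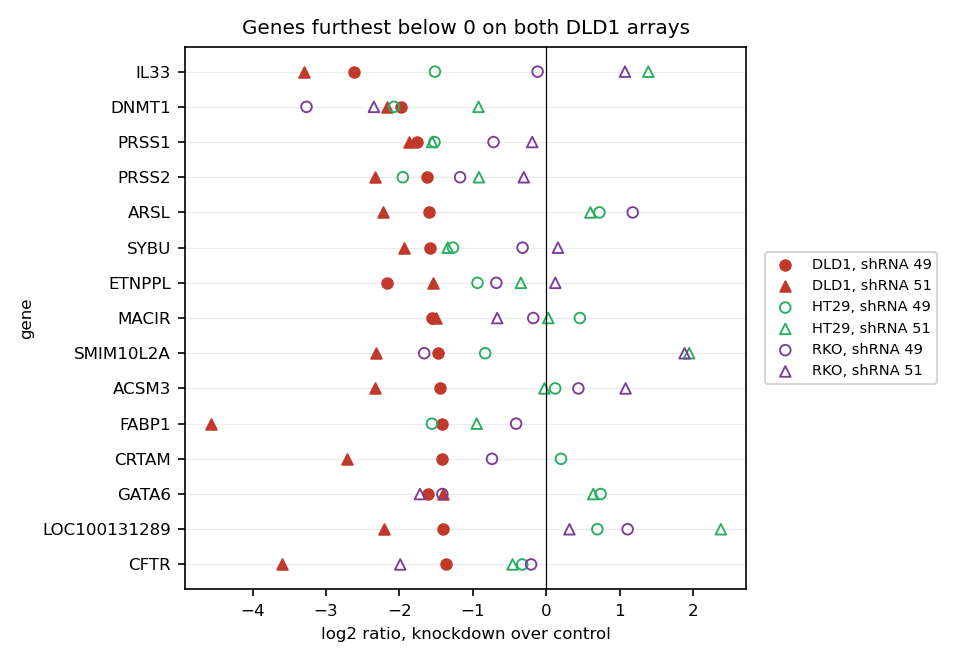
Log2 ratios of knockdown over control (x axis) of the 15 genes furthest below 0 on both DLD1 arrays among those with unshared ratios, with filled red symbols for DLD1 and open symbols for HT29 (green) and RKO (purple). DNMT1 lies below 0 on all 6 arrays, while the HT29 and RKO symbols of ACSM3 and ARSL lie at or above -0.02.

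The genes higher on both DLD1 arrays were next compared with those of the other lines. Of 273 with a value on all 6 arrays, 29 (10.6%) were at least 2-fold higher on both arrays of HT29 and of RKO. Of all 15793 genes with such values, 0.361% were. At least 2-fold higher on both arrays of neither line were 204 (74.7%). Most of all genes are likewise in neither, as 1.56% were higher on both arrays in HT29 and 2.02% in RKO. The 74.7% thus shows nothing particular to DLD1. HT29 shared 56 of 303 (18.5% of the DLD1 genes and 21.6% of the 259 HT29 genes), against 1.56% of all genes. RKO shared 51 of 293 (17.4% and 15.2% of the 336 RKO genes), against 2.02% of all. Of the 338, 329 were measured on the UHRF1 array, where 49 (14.9%) were at least 2-fold higher, against 4.13% of the genes that also had DLD1 values and 4.62% of all genes on that array. The genes higher on all 6 arrays included the germline genes VCX2 (1 shared ratio), GAGE7, PAGE5, PAGE2, MAGEA1, MAGEA12, SPANXA1 and SPANXD. Also among them were GTSF1, a piRNA pathway factor, SOHLH1, a germ cell transcription factor, TEKT2 of the sperm tail, and NEFH, the heavy neurofilament. Of the lower genes, 44 of 53 (83%) were lower on both arrays in neither line, as were most of all genes, and 0 in both. HT29 shared 4 of 60 (6.67%), against 0.391% of all genes, and RKO shared 5 of 58 (8.62%), against 0.626%.

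In 149 of those 273 higher genes (54.6%) both DLD1 arrays lay above all 4 HT29 and RKO arrays, in 57 by at least 2-fold. In 28 of 53 lower genes they lay below all 4, in 6 by at least 2-fold. The genes were chosen for high or low DLD1 values, and the same share over all genes was not taken. These counts thus describe them and test nothing. The difference between DLD1 and the mean of HT29 and RKO was tested over all genes in the same fit. No gene passed (0%, smallest adjusted p = 0.401), although 1074 had an unadjusted p under 0.05, so none can be called particular to DLD1.

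Of the 10 genes with unshared ratios and the widest gap above HT29 and RKO, ANXA8L1 and SIX2 are given above. ZG16B came first, with a difference of 4.57 ± 0.33 (SE) between DLD1 and the other lines. DMKN, a secreted protein of the upper epidermis, stood at 2.81 and 6.70 in DLD1 and between -2.77 and -0.38 elsewhere. SLC2A3, the glucose transporter GLUT3, gave 2.93 and 4.76 in DLD1, against -0.17 and -0.64 in HT29 and -1.31 and -4.73 in RKO. SLC2A14, its close duplicate on the same chromosome, followed it, at 3.27 and 5.85 in DLD1 and -5.53 on 1 RKO array, and the copies may share hybridising RNA. FKBP10, a collagen-folding chaperone, was even between hairpins, at 3.30 and 3.69 in DLD1 and between -1.34 and 0.41 elsewhere. NR2F1, an orphan nuclear receptor, lay at 2.53 and 3.32 in DLD1 and below 0 on the other 4 arrays, from -1.91 to -0.36. NFIB, a nuclear factor I family member, gave 1.54 and 2.63, against -1.46 to -0.63. With shRNA 51, 2 of its 3 probes hold shared ratios. ARSJ, a sulfatase, gave 2.0 and 2.36, against -2.19 to -0.17. Over the 10 genes higher in DLD1 the difference ran from 3.13 to 6.24 with adjusted p from 0.401 to 0.796. Of the 5 lower ones (-3.16 to -1.60, adjusted p = 0.796), IL33, ACSM3 and LOC100131289 are given above. ERVMER34-1, an envelope gene of an endogenous retrovirus, had -1.09 and -1.56 in DLD1 and -0.01 to 2.74 elsewhere. RASSF9 had -1.26 and -1.15, against 0.01 to 1.07.

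**Figure D4:**
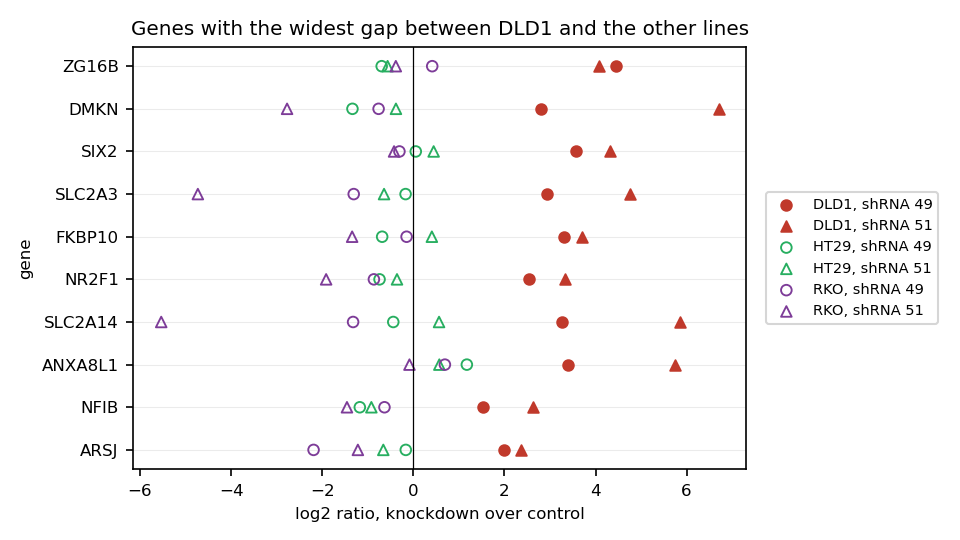
Log2 ratios of knockdown over control (x axis) of the 10 genes with the widest gap between the lower DLD1 array and the highest HT29 or RKO array, among genes with unshared ratios on both DLD1 arrays (which leaves out KLK11), filled red for DLD1, open green for HT29 and open purple for RKO. No DLD1 symbol overlaps the other lines for any of these genes, which were chosen for that.

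Gene lists were described by how many measured members were at least 2-fold higher or lower on both DLD1 arrays, beside 1.89% higher and 0.375% lower over all genes. Members and lists were chosen with earlier results of these data known, so the shares of the lists describe them and test nothing. Cancer-testis antigens stood first, with 15 of 43 higher (34.9%) and 0 lower. Members had a median of 0.53 under shRNA 49 and 3.56 under shRNA 51, against -0.02 and 0.04 for all genes, and 33 lay above 0 on both arrays. Of these members 3 rose in the fit. Several of the 15 higher ones are of the same family, such as VCX, VCX2 and VCX3A, and may not be independent of each other. PAGE2 (1.67 and 6.63), SPANXA1 (1.45 and 6.49) and SPANXD (1.37 and 5.94) show how far the hairpins differed within the group. Of the meiosis and piRNA genes 2 of 45 were higher, SOHLH1 (2.70 and 3.20, partly a shared ratio with shRNA 51) and GTSF1 (2.26 and 4.91), and 2 lower. The lower ones were SYCE2 of the synaptonemal complex (-1.17 and -1.17) and the testis ADP/ATP carrier SLC25A31 (-1.30 and -1.26), both with shared ratios.

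Kallikreins, a cluster of secreted serine proteases on chromosome 19, had 4 of 14 higher and 0 lower. KLK11 gave 4.87 and 3.48 in DLD1 and no more than 0.29 elsewhere, and KLK8 gave 3.08 and 4.86 in DLD1, against -0.58 and 1.42 in HT29 and 2.47 and 3.31 in RKO. KLK11 has a shared ratio with shRNA 51. KLK12 stood at 2.06 and 2.32 and KLK6 at 1.72 and 2.13. KLK11 and KLK8 missed the threshold of the fit (adjusted p = 0.0566 and 0.0900). Keratins had 5 of 26 higher and 0 lower, with medians of 0.39 and 2.18, and beside KRT7 and KRT23 these were KRT13 (1.32 and 4.19), KRT80 (1.44 and 2.31) and KRT34 (1.01 and 3.80). Of the intestinal differentiation genes 4 of 41 were higher and 1, FABP1, was lower. The higher ones were villin, VIL1 (1.97 and 1.19), the goblet cell factor SPDEF (1.71 and 1.20, the second a shared ratio), the goblet cell lectin ZG16 (1.56 and 4.16) and the mucin MUC1 (1.11 and 2.56). The intestinal homeobox gene CDX2 lay at -0.26 and -1.62.

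Of the genes listed for promoter hypermethylation in colorectal cancer, 6 of 60 were higher (10%) and 0 lower. Beside FSTL1 and DKK1 these were the cell cycle inhibitor CDKN2A (1.52 and 3.30), MAL (1.87 and 5.39), IGF2 (1.96 and 1.95, with a shared ratio among its 2 probes) and TIMP2 (1.11 and 2.87). None of the other secreted Wnt inhibitors on the list was 2-fold higher on both arrays. SFRP5 stood at 0.46 and 2.66, DKK3 at 0.41 and 0.56, and SFRP4 at -0.55 and -0.43. SFRP1 (0.04 and 0.02), SFRP2 (0.22 and 0.15) and WIF1 (0.01 and 0.30) lay nearer to 0, and all of these 6 rest partly or wholly on shared ratios. The imprinted gene list, which lacks FAM50B, had 3 of 31 higher, the non-coding RNA H19 (3.39 and 4.14), its neighbour IGF2, and the cyclin-dependent kinase inhibitor CDKN1C (1.80 and 3.46). H19 lay at 1.20 and 3.12 in HT29, at 1.16 and -0.83 in RKO, and at 3.76 on the UHRF1 array. Clustered protocadherins, neuronal adhesion genes, had 3 of 27 higher, PCDHGA3 (1.72 and 4.20), PCDHB2 (1.14 and 3.97) and PCDHB15 (1.05 and 3.24), the last with a shared ratio. Mesenchymal and matrix genes had 5 of 44 higher, among them TGFB2 (1.95 and 1.98) and TGFBI (1.57 and 1.38).

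Immune and stress lists had 0 to 3 such genes each. Interferon-stimulated genes had 3 of 46 higher (6.52%), IFITM1 (2.56 and 1.98), BST2 (1.93 and 1.05) and ISG20 (1.09 and 1.51), with list medians of -0.05 and 0.26. NF-kB genes had 3 of 35 (8.57%), TNFAIP2 (3.29 and 5.69), IL32 (1.44 and 1.70, the second a shared ratio) and LTB (1.34 and 1.53). For TNFAIP2, a gene induced by tumour necrosis factor, the HT29 arrays gave -1.93 and 1.23 and the RKO arrays -0.39 and -0.05. The p53 target CDKN1A, a cyclin-dependent kinase inhibitor, was the 1 of 28 on its list (3.57%) with 1.28 and 1.81, and its 2 probes gave 0.75 and 1.81 with shRNA 49 and 0.72 and 2.89 with shRNA 51. Of the hypoxia genes 2 of 35 were higher (5.71%), SLC2A3 and ADM (1.00 and 2.03), and of the immediate early genes 1 of 29 (3.45%), CCN1 (1.16 and 1.36). PHGDH (-1.07 and -1.45), the first enzyme of serine synthesis, was lower among 38 stress genes. Antigen presentation, epithelial junction, HOX, metallothionein, sterol synthesis and oxidative phosphorylation lists had 0 in either direction.

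In the lists of growth genes more members lay below than above 0, and none was 2-fold lower on both arrays. Of all 17874 genes 4923 lay below 0 on both arrays and 5044 above. Of 45 mitosis genes 25 lay below 0 on both arrays and 2 above, with medians of -0.04 and -0.37. HMMR (-0.69 and -0.99) and the checkpoint kinase BUB1 (-0.68 and -0.57) were the furthest. Of 44 S phase genes 19 lay below on both and 4 above, with medians of -0.02 and -0.31, and of 48 ribosomal protein genes 25 and 1, with medians of -0.27 and -0.02. None of these genes passed the fit. Markers of other cells had 0 of 18 members higher for fibroblasts and endothelium, or 1 of 4 without shared ratios (VWF), 1 of 19 for blood cells (CSF1R, 2.08 and 2.75) and 1 of 17 for neurons and glia (NEFH, 1.19 and 4.36). The 2 probes of VWF, an endothelial clotting factor, gave 1.41 and 0.12 with shRNA 49 and 4.02 and 0.22 with shRNA 51, the lower of each pair a shared ratio, and PECAM1 gave 1.17 and 0.99, both shared. The medians of these 3 lists ran from 0.01 to 0.26 under shRNA 49 and from 0.34 to 0.45 under shRNA 51. Their part in the other results was not tested.

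**Figure D5:**
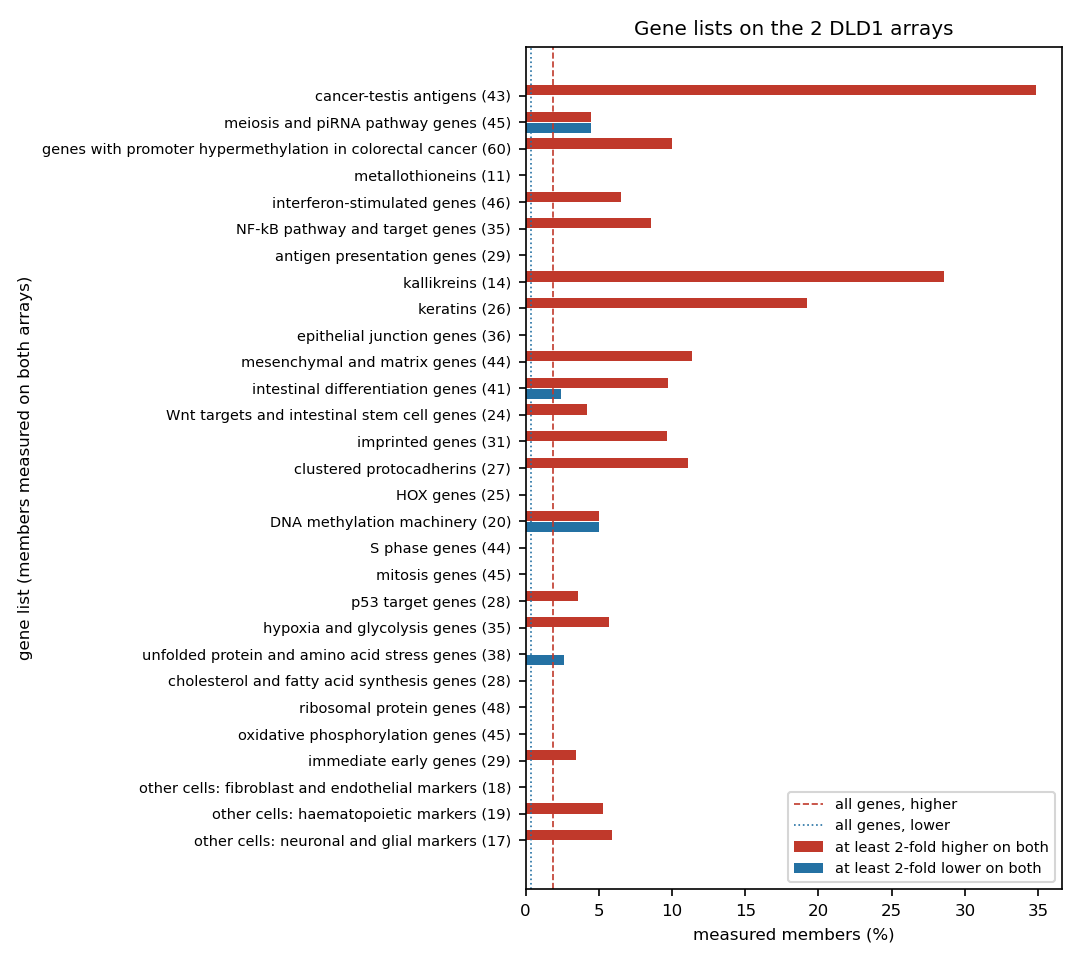
Share of measured members (x axis, percent) of each gene list that was at least 2-fold higher (red) or lower (blue) on both DLD1 arrays, with the number of measured members in brackets. The dashed line marks the 1.89% of all genes that were higher and the dotted line the 0.375% that were lower, and cancer-testis antigens (34.9%) reach furthest.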

How the data were processed

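The authors deposited a log ratio for each probe of each array, which was read as log2 because of its range. The submitters' processing notes name limma without a version. The sources used here give neither the log base nor the background correction, normalization or direction. Medians of the DLD1 arrays were -0.0106 and 0.0149. Direction was read from DNMT1. Signal strength was not used here, so no dim probes were removed, and the number of arrays limits precision.

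Probes with 1 gene symbol in the platform annotation (29341 of 41000; 33 had several, 11626 none) were averaged to 18646 genes, with symbols updated through Entrez identifiers (99.9% matched RefSeq). The labels number the arrays by hairpin, and the shRNA term of the fit serves as the replicate block. limma 3.58.1 (R 4.3.3) fitted genes with a value on at least 5 of the 6 DNMT1 arrays and on both DLD1 arrays, with two-sided p-values adjusted by Benjamini and Hochberg over all 17431 genes at a threshold of 0.05. It was tested on simulated data with known changes.

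Named were the 20 genes higher and 15 lower with the largest smaller ratio, the 10 and 5 with the widest gap to HT29 and RKO, every gene passing the fit, the 4 methylation genes DNMT1, UHRF1, DNMT3A and DNMT3B, and up to 4 members per list at least 2-fold the same way on both arrays (up to 2 by the mean where none was). The first 2 groups needed an unshared ratio on both arrays. Other genes were named after their values were seen: KRT34, MUC1, TIMP2, CDKN2A, CDX2, SFRP1, SFRP2, SFRP4, SFRP5, DKK3, WIF1, PAGE2, SPANXA1, SPANXD, the genes higher in all lines, the epithelial markers and the genes at the limit. Members and lists were chosen with earlier results of these data known. Python 3.11.15, pandas 2.3.3 and matplotlib 3.10.9 were used.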

Additional observations from a re-analysis of the deposited data

How the results depend on the processing

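Of the genes higher on both DLD1 arrays (338), quantile normalization gave 550, a 1.5-fold limit 890, a 4-fold limit 74, and 1 array alone 545 to 2357. Of those lower (67), quantile normalization gave 125, scaled arrays 112, a 1.5-fold limit 390, a 4-fold limit 1, and 1 array alone 380 to 815. The 4 genes that rose in the limma fit became 0 without the shRNA term (the replicate block) or with the DLD1 arrays alone, 70 without shared ratios, 39 with quantile normalization, 15 with scaled arrays, 14 with genes valued on all 6 arrays, and 0 to 15 with 1 array left out. The 70 included KRT7 (adjusted p = 0.00248) and DNMT3B (adjusted p = 0.0464). Genes that fell became 2 without shared ratios, SYBU and DNMT1. The difference between DLD1 and the other lines gave 0 genes under every alternative run, by limma. The side of 0 changed with 1 array left out for CDH17 (-4.20 to 1.32), HOXC13 (-0.23 to 3.48), SMIM10L2A (-3.90 to 0.11) and IDI1 (-1.73 to 0.65). With scaled arrays it changed for the difference of CTAG1A (0.28). HOXC13 rests on a shared ratio with shRNA 49. The cause of these changes was not tested. With 1 DLD1 array left out, the remaining array is assumed to vary like those of the other lines. Labels give no scan date or slide, so such batches were not examined.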

Other observations

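Probes without a single listed gene symbol were left out of the comparisons above. Of 10525 such probes with a ratio on both DLD1 arrays, 82 (0.779%) were at least 2-fold higher on both and 49 (0.466%) at least 2-fold lower. Of 27755 probes with 1 gene symbol, 498 (1.79%) were higher and 110 (0.396%) lower.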
